A study of Homo sapiens with 16 samples.

Results

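The genes described here were 9 members of the TAL1 regulatory circuit of T-lineage acute lymphoblastic leukemia (T-ALL): GATA3, RUNX1, MYB, ETS1, ALDH1A2, ARID5B, TRIB2, CDK6 and STIL. They were chosen by gene symbol from the 57820 genes of the count table, with earlier results of these data known, and each symbol named 1 row. Their levels were followed by RNA-seq in Jurkat and HSB-2, established T-ALL cell lines that the labels give as TAL1+ in every group. In each line, 2 libraries came from wild-type cells, 2 from cells with a scrambled control, 2 from cells with USP7 shRNA-4057 and 2 from cells with USP7 shRNA-4058, so n = 2 for each of the 8 groups. The shRNAs were delivered by lentivirus, and transduced cells were sorted for GFP or selected with puromycin, so each group was a population and not a clone. The labels call the control a scrambled siRNA, whereas the design text of the series calls it an shRNA scramble. They do not say whether replicates were separate transductions, so p-values measure only the spread between these libraries, which may be technical.

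TAL1 is a basic helix-loop-helix transcription factor that is silent in maturing thymocytes and is switched on aberrantly in a large subset of T-ALL. It binds E-boxes as a heterodimer with the E-proteins, and in T-ALL cells it works in a complex with GATA3, RUNX1, MYB and LMO proteins, whose genes it also activates in an interconnected loop. ETS1 often occupies the same regulatory regions, and ALDH1A2, ARID5B, TRIB2, CDK6 and STIL are known as genes that the complex activates. The deubiquitinase USP7, the target of the hairpins, stabilizes many nuclear proteins. The question for these genes was whether the shRNA knock-down of USP7 changed the level of the circuit and of its targets, and whether it did so alike in both lines.

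Library totals ranged from 76.6 to 235.5 M (mega) counts, and levels are given as CPM, counts per M counts of a library, after TMM scaling, which corrects for differences in library composition. A gene is called when its Benjamini-Hochberg adjusted p in edgeR's quasi-likelihood test, taken over all genes tested, was under 0.05. USP7 itself stood at 384 and 387 CPM in scrambled Jurkat cells, 140.0 and 145 with shRNA-4057, and 244 and 242 with shRNA-4058. In HSB-2 it stood at 227 and 220.1 CPM in scrambled cells, 144 and 149 with shRNA-4057, and 162 and 156 with shRNA-4058. Over both hairpins the log2 change of USP7 was -0.97 ± 0.24 (SE) in Jurkat (adjusted p = 0.020) and -0.55 ± 0.06 in HSB-2 (adjusted p = 1.1e-04). The 11 T-lineage markers summed to between 2693 and 4138 CPM across the libraries, whereas 5 myeloid markers summed to at most 0.233 CPM and 4 epithelial markers of packaging cells to at most 0.356 CPM. Since these are bulk libraries, fewer cells of a type and less RNA per cell cannot be told apart.

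TAL1 was at 287 and 292.7 CPM in scrambled Jurkat cells, 340.1 and 338 with shRNA-4057, and 283 and 282 with shRNA-4058. In HSB-2 it was at 99.8 and 104 CPM in scrambled cells, 128 and 125 with shRNA-4057, and 130.3 and 134 with shRNA-4058. TAL1 transcript was therefore present in every library, and the pooled change was 0.12 ± 0.10 on the log2 scale in Jurkat (adjusted p = 0.36) and 0.35 ± 0.05 in HSB-2 (adjusted p = 9.7e-04). Against wild-type cells in place of scrambled cells, neither change was called, at -0.22 ± 0.09 in Jurkat and 0.12 ± 0.05 in HSB-2.

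In cells without USP7 shRNA, the circuit stood at different levels in the 2 lines. Over scrambled and wild-type cells together, 7 of the 9 genes were lower in HSB-2 than in Jurkat and 1, TRIB2, was higher, in a comparison in which 77.4% of all genes tested were called, 38.8% lower and 38.6% higher. The largest difference was that of ALDH1A2, which was 199.9-fold lower in HSB-2 (log2 difference -7.64 ± 0.05, adjusted p = 1.1e-32). RUNX1 was 2.41-fold, STIL 2.22-fold, GATA3 1.99-fold and ARID5B 1.958-fold lower in HSB-2, and the log2 difference of TAL1 itself was -1.58 ± 0.02 (adjusted p = 1.4e-25). TRIB2 was 1.78-fold higher in HSB-2, with a log2 difference of 0.84 ± 0.02 (adjusted p = 1.5e-20). For CDK6 the log2 difference was -0.02 ± 0.03 (adjusted p = 0.48), which joined a higher level in HSB-2 among scrambled cells alone (0.21 ± 0.04) and a lower level among wild-type cells alone (-0.26 ± 0.04).

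Per length of the canonical transcript (RPKM, the CPM per kilobase), CDK6 was the most abundant member in wild-type cells of both lines, at 143 RPKM in Jurkat and 119.9 RPKM in HSB-2, and ETS1 followed at 141 and 101.4 RPKM. In wild-type Jurkat cells ALDH1A2 followed these 2 at 137 RPKM, ahead of RUNX1 at 123 and MYB at 122 RPKM. It was the last of the 9 in wild-type HSB-2 cells, at 0.749 RPKM, behind STIL at 10.4 RPKM. Ranks in the middle of these orders rest on which transcript is counted as the gene, since with the length of all annotated exons ALDH1A2 was at 57.0 RPKM in Jurkat and ranked 4.

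**Figure D1:**
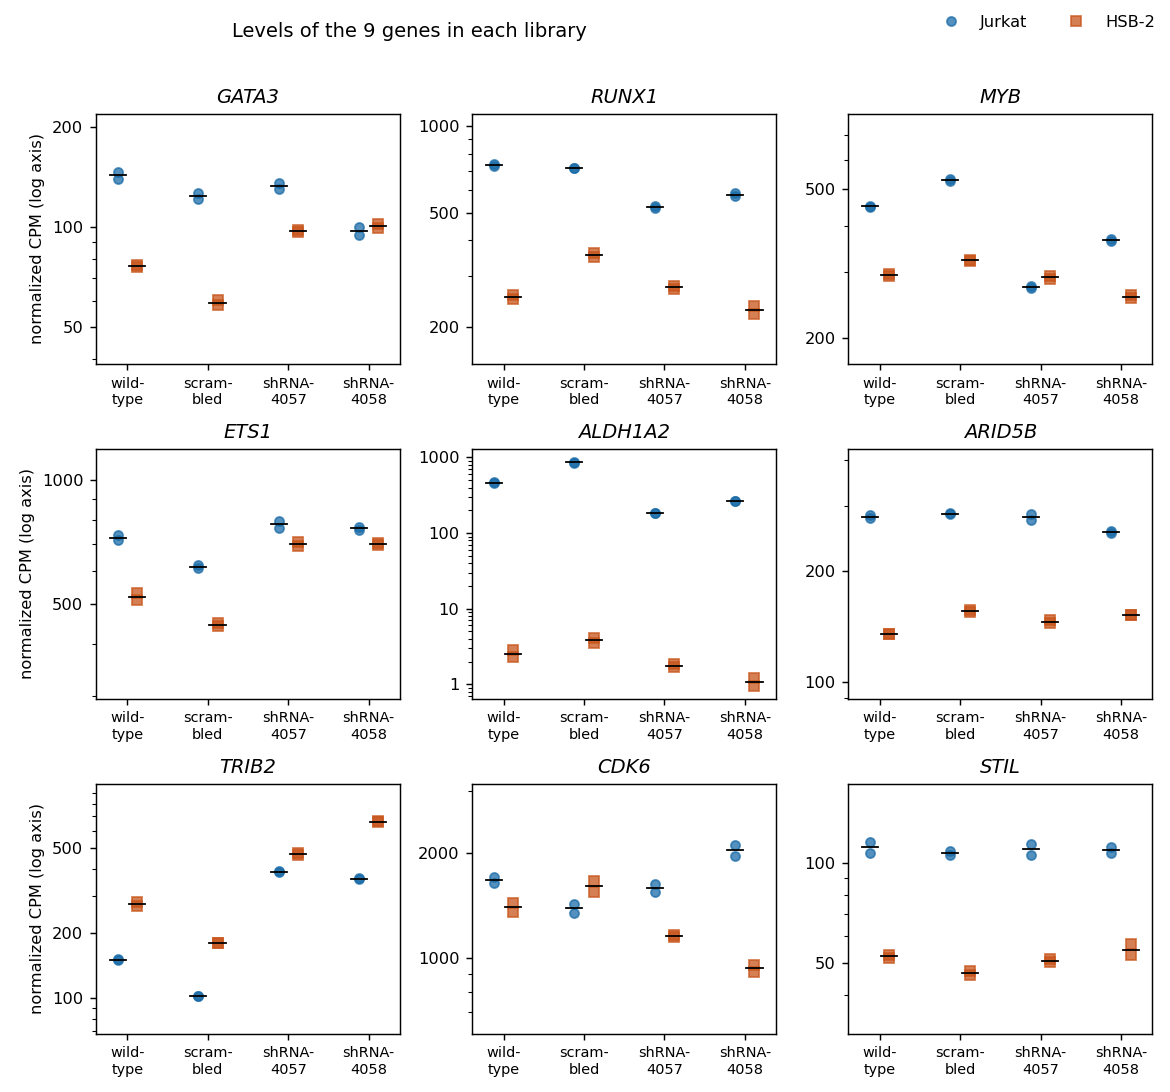
TMM-normalized CPM on a log axis for each of the 9 genes in the 16 libraries, with circles for Jurkat, squares for HSB-2 and a black bar for the mean of the 2 libraries of a group. ALDH1A2 lies between 186 and 870 CPM in Jurkat but between 0.962 and 4.08 CPM in HSB-2, and TRIB2 is above both control groups in all shRNA libraries of both lines.

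With both hairpins pooled against scrambled cells, the 9 genes did not move as a block in either line. The pooled test treated the libraries of a hairpin as independent, so its error joins the hairpin difference with the spread of replicates. In Jurkat 6 of the 9 were called, where 28.0% of all genes tested were called (12.4% higher and 15.7% lower): ETS1, TRIB2 and CDK6 were higher and RUNX1, MYB and ALDH1A2 were lower. In HSB-2 8 of the 9 were called against 38.1% of all genes tested (20.3% higher and 17.8% lower), with GATA3, ETS1, TRIB2 and STIL higher and RUNX1, MYB, ALDH1A2 and CDK6 lower. The median log2 fold change of the 9 was -0.07 in Jurkat and -0.06 in HSB-2, beside 0.02 and -0.02 over all genes tested. At a 2-fold change or more, ALDH1A2 and TRIB2 were the called members in both lines (8.32% of all genes tested in Jurkat and 10.1% in HSB-2). The Jurkat calls of RUNX1, MYB and CDK6, unlike those of ETS1, ALDH1A2 and TRIB2, leaned on having both scrambled libraries. So did the call of USP7 itself and those of many other genes. Without scrambled replicate 1 or replicate 2, respectively, the log2 changes were -0.36 and -0.35 for RUNX1 and -0.72 and -0.69 for MYB. They were 0.44 and 0.36 for CDK6 and -0.99 and -0.97 for USP7.

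Wild-type cells gave a second control, and fewer members stood clear of both. In Jurkat, all 4 shRNA libraries lay outside all 4 control libraries for 5 of the 9 genes, namely ETS1 and TRIB2 above and RUNX1, MYB and ALDH1A2 below, where 30.4% of all genes tested did so. In HSB-2 this held for 5 of the 9, with GATA3, ETS1 and TRIB2 above and ALDH1A2 and CDK6 below, against 33.4% of all genes tested. ETS1, TRIB2 and ALDH1A2 were thus outside the range of the controls in both lines. The share of all genes for which this held in both lines was not counted. With wild-type in place of scrambled cells, 3 members were called in Jurkat (RUNX1, ALDH1A2 and TRIB2) and 5 in HSB-2 (GATA3, ETS1, ALDH1A2, TRIB2 and CDK6). Over all genes tested, 1798 of 21381 were then called in Jurkat and 5010 of 19988 in HSB-2.

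**Figure D2:**
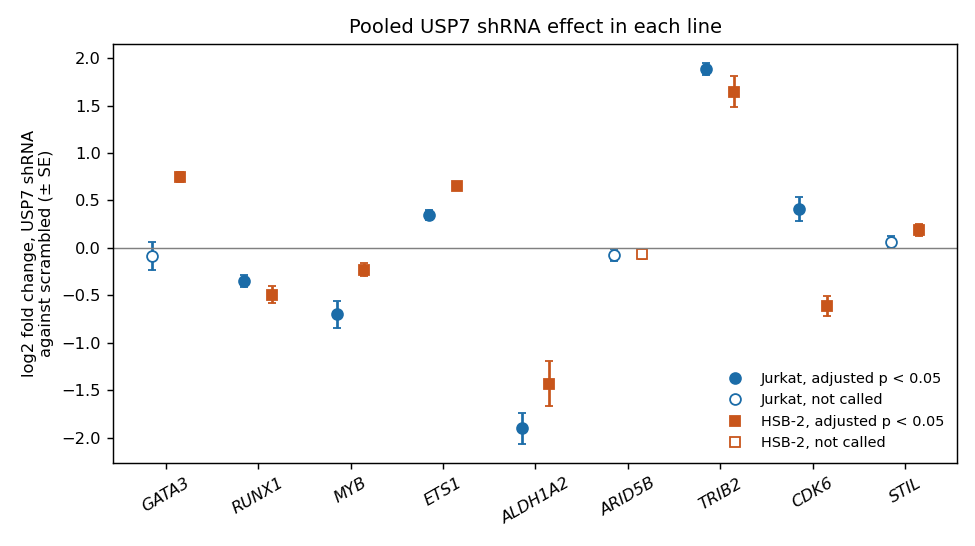
Log2 fold change of USP7 shRNA (both hairpins, 4 libraries) against scrambled cells (2 libraries) for each gene, with SE bars, in Jurkat (circles) and HSB-2 (squares). Filled symbols were called: TRIB2 is highest in both lines (1.89 and 1.65), ALDH1A2 lowest (-1.90 and -1.43), and CDK6 lies on opposite sides of 0 (0.41 and -0.61).

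ALDH1A2 (ENSG00000128918.10, GRCh37 chr15:58245622-58790065, minus strand) encodes retinaldehyde dehydrogenase, the enzyme that oxidizes retinal to retinoic acid, and is a classical target of TAL1, LMO and GATA3 in T-ALL. In Jurkat it was at 467 and 459 CPM in wild-type cells, 870.4 and 853 in scrambled cells, 187 and 186 with shRNA-4057, and 265 and 268 with shRNA-4058. All shRNA libraries were below all controls, and the scrambled cells were the highest of the 4 groups. Pooled over the hairpins, the log2 change was -1.90 ± 0.16 (adjusted p = 3.9e-04), a 3.74-fold lower level. Against wild-type cells the size shrank to -1.003 ± 0.16, still called.

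In HSB-2 the same gene was read from 81 to 762 counts per library. It was at 2.81 and 2.26 CPM in wild-type cells, 4.08 and 3.52 in scrambled cells, 1.83 and 1.67 with shRNA-4057, and 0.962 and 1.20 with shRNA-4058. At this far lower level the shRNA libraries were again all below the controls and the scrambled cells again highest. Pooled, the log2 change in HSB-2 was -1.43 ± 0.24 (adjusted p = 0.0016), and -0.86 ± 0.26 against wild-type cells. The effects in the lines differed by 0.47 ± 0.30 on the log2 scale (HSB-2 minus Jurkat, 95% interval -0.11 to 1.05, adjusted p = 0.23). The gene model spans the opposite-strand genes AQP9 and LIPC, which had 1 and 5393 counts over all libraries beside 365214 for ALDH1A2.

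RefSeq lists 2 starts for ALDH1A2, and since the fall of this gene was the largest of the circuit, the window from 250 bases before to 50 bases after each start is shown. Capitals mark matches to the E-box CANNTG, which TAL1 and E-protein dimers recognize, and to GATAA on either strand, which GATA factors recognize. Coordinates are those of GRCh38.p14 on the minus strand, chr15:58065662-58065961 for the upstream start and chr15:58013974-58014273 for the internal start.
ALDH1A2 upstream start: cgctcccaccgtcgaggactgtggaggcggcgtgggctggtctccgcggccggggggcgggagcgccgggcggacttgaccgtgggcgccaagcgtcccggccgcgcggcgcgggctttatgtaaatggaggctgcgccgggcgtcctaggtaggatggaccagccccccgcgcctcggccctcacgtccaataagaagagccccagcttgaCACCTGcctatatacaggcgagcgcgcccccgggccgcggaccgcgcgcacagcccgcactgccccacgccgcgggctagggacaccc
ALDH1A2 internal start: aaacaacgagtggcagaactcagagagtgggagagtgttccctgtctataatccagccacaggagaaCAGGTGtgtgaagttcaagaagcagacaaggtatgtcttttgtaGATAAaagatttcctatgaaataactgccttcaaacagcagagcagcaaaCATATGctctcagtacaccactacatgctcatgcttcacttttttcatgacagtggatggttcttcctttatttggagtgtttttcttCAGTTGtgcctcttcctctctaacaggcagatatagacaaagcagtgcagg
The internal window held 3 E-boxes, 1 GATAA, 5 matches to AACNG (the MYB core) and 2 to GGAAG (an ETS core), whereas the upstream window held 1 E-box and none of the others. Over all 35116 windows of this length in the RefSeq table, 68.7% held an E-box, 22.7% GATAA, 77.2% AACNG, 71.9% GGAAG and 19.6% TGTGGT or TGCGGT (the RUNX core), each counted on both strands. The counts are summed per gene, so they do not show which start was used. A match describes the letters of the window and not a bound site.

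TRIB2 (ENSG00000071575.7, GRCh37 chr2:12857036-12882860, plus strand) encodes a pseudokinase that recruits a ubiquitin ligase to its substrates and acts as an oncogene in leukemia. It rose with both hairpins in both lines. In Jurkat it was at 151 CPM in each wild-type library, 103 CPM in each scrambled library, 389 and 385 CPM with shRNA-4057, and 360.1 and 358 CPM with shRNA-4058. This was a pooled log2 rise of 1.89 ± 0.06 (adjusted p = 6.0e-05), or a 3.69-fold higher level.

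In HSB-2 TRIB2 was at 267 and 280.3 CPM in wild-type cells, 181 and 180.1 in scrambled cells, 471 and 461 with shRNA-4057, and 658 and 663 with shRNA-4058. The groups did not overlap in either line, and the scrambled cells were the lowest of the 4 groups in both. Pooled, TRIB2 rose by 1.65 ± 0.16 on the log2 scale (adjusted p = 8.6e-05), a 3.13-fold higher level. Against wild-type cells TRIB2 stayed called, at 1.33 ± 0.06 in Jurkat and 1.04 ± 0.16 in HSB-2. The effects in the lines differed by -0.21 ± 0.19 (95% interval -0.58 to 0.15, adjusted p = 0.39).

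As the gene with the strongest rise, TRIB2 is shown with its RefSeq promoter window, GRCh38.p14 chr2:12716686-12716985 on the plus strand, in which none of the 5 motifs matched and so no base is in capitals.
TRIB2 start: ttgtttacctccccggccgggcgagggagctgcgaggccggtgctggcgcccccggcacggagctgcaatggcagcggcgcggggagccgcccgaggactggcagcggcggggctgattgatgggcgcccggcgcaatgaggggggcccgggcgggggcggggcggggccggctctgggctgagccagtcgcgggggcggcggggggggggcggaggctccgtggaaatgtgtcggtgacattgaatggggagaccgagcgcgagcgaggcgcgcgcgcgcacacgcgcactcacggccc
RefSeq windows were found for 8 of the 9 genes, 16 windows in all, and not for ETS1. Of these 16 windows, 5 held an E-box (68.7% of all RefSeq windows did), 3 GATAA (22.7%), 3 a RUNX core (19.6%), 10 AACNG (77.2%) and 10 GGAAG (71.9%). The windows were spread unevenly over the genes: GATA3 had the most, and each window with a RUNX core belonged to GATA3. The absence of a match says only that these letters are not in the window.

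Among the transcription factors, GATA3 (ENSG00000107485.11, GRCh37 chr10:8087341-8117161, plus strand) is the zinc finger factor that commits progenitors to the T lineage. Its Jurkat levels were 139.7 and 146 CPM in wild-type cells, 121 and 127 in scrambled cells, 136 and 129.8 with shRNA-4057, and 94.7 and 100.2 with shRNA-4058. The hairpins thus lay on opposite sides of the scrambled libraries, and the pooled log2 change of -0.08 ± 0.15 was not called (95% interval -0.37 to 0.21, adjusted p = 0.69). In HSB-2 GATA3 was at 75.5 and 76.6 CPM in wild-type cells, 58.1 and 60.1 in scrambled cells, 96.3 and 97.8 with shRNA-4057, and 99.6 and 102 with shRNA-4058. There it rose, with all shRNA libraries above all controls (0.75 ± 0.05, 1.68-fold, adjusted p = 1.4e-05). The difference of the effects, 0.85 ± 0.17, was called (adjusted p = 0.0016).

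RUNX1 (ENSG00000159216.14, GRCh37 chr21:36160098-37376965, minus strand), the core-binding factor of definitive hematopoiesis, was called lower in both lines. In Jurkat it was at 729 and 737 CPM in wild-type cells, 712 and 715 in scrambled cells, 525 and 520.0 with shRNA-4057, and 584 and 571 with shRNA-4058. The controls of Jurkat lay close together and the shRNA libraries all below them (-0.35 ± 0.07, adjusted p = 0.0075). In HSB-2 it was at 249.8 and 258 CPM in wild-type cells, 362 and 349.7 in scrambled cells, 277 and 271 with shRNA-4057, and 222 and 235.3 with shRNA-4058. Here the wild-type cells lay between the hairpins, so the log2 change of -0.50 ± 0.09 against scrambled cells (adjusted p = 0.0025) became -0.02 ± 0.09 against wild-type cells and was not called. The effects in HSB-2 and Jurkat differed by -0.12 ± 0.12 with scrambled cells as control (adjusted p = 0.46, not called), which turned to 0.41 ± 0.11, called, with wild-type cells as control.

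MYB (ENSG00000118513.14, GRCh37 chr6:135502446-135540311, plus strand) sustains the proliferation of immature blood cells and is itself an oncogene in T-ALL. Its levels in Jurkat were 452 and 449.5 CPM in wild-type cells, 527 and 532 in scrambled cells, 272 and 275 with shRNA-4057, and 364 and 369 with shRNA-4058. No shRNA library reached a control, and the pooled log2 change was -0.70 ± 0.14 (1.63-fold lower, adjusted p = 0.0093). In HSB-2 the levels were 292.7 and 296 CPM in wild-type cells, 322 and 323 in scrambled cells, 288 and 292.8 with shRNA-4057, and 260.4 and 255 with shRNA-4058. The HSB-2 change was smaller, at -0.23 ± 0.07 (adjusted p = 0.026), and an shRNA-4057 library overlapped the wild-type libraries. Against wild-type cells MYB was called in neither line (-0.47 ± 0.14 in Jurkat and -0.11 ± 0.07 in HSB-2). The difference between the lines was 0.49 ± 0.17 (adjusted p = 0.034), and it was lost without any of 6 libraries: either scrambled library of Jurkat, either scrambled library of HSB-2 or either shRNA-4057 library of HSB-2 (0.46 to 0.50, adjusted p from 0.056 to 0.10).

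ETS1 (ENSG00000134954.10, GRCh37 chr11:128328656-128457453, minus strand), a factor expressed through T-cell development, rose in both lines. In Jurkat it was at 734 and 715 CPM in wild-type cells, 620.3 and 612 in scrambled cells, 766 and 793 with shRNA-4057, and 770.0 and 754 with shRNA-4058. The shRNA libraries were above all controls, by a wide gap over scrambled cells and a narrow gap over wild-type cells. The log2 change was 0.35 ± 0.05 against scrambled cells (adjusted p = 0.0026) and 0.12 ± 0.05, not called, against wild-type cells. After a correction for GC content and transcript length it was 0.09 ± 0.06 and not called, which was 0.26 above the median of all genes, beside 0.33 before it. That correction also removed library composition again, on top of TMM, and so shifted all genes. Calls that it changed cannot be assigned to GC content or length. In HSB-2 ETS1 was at 510.2 and 532 CPM in wild-type cells, 449.5 and 442 in scrambled cells, 689.9 and 706 with shRNA-4057, and 702 and 695 with shRNA-4058. The rise there was 0.65 ± 0.05 (1.57-fold, adjusted p = 1.3e-05), it held against wild-type cells (0.42 ± 0.04), and it exceeded that in Jurkat by 0.33 ± 0.06 (adjusted p = 0.0016).

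CDK6 (ENSG00000105810.5, GRCh37 chr7:92234235-92465887, minus strand), the kinase that with D-type cyclins drives entry into S phase, was called in opposite directions in the lines. In Jurkat it was at 1703 and 1636 CPM in wild-type cells, 1430.1 and 1344 in scrambled cells, 1543 and 1631 with shRNA-4057, and 2099 and 1958 with shRNA-4058. Both hairpins were above scrambled cells, but the shRNA-4057 libraries lay below wild-type cells. The log2 change of 0.41 ± 0.13 (adjusted p = 0.048) was just inside the threshold, and it was 0.14 ± 0.13 and not called against wild-type cells. In HSB-2 CDK6 was at 1356 and 1440.5 CPM in wild-type cells, 1664 and 1544 in scrambled cells, 1147 and 1166 with shRNA-4057, and 912 and 956 with shRNA-4058. All 4 shRNA libraries were below all controls, and the change was -0.61 ± 0.10 (1.53-fold lower, adjusted p = 0.0016), or -0.42 ± 0.10 against wild-type cells, also called.

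The CDK6 effects differed between the lines by -0.996 ± 0.18 (adjusted p = 7.9e-04). After the same correction, the difference was -0.25 ± 0.14 and not called. That correction moved the median difference of all genes from -0.01 to 0.37, so relative to the median the CDK6 difference was -0.98 before it and -0.62 after it. CDK6-AS1 on the opposite strand had 14474 counts in all libraries beside 2947666 for CDK6, and the strand setting of the counting is not stated.

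ARID5B and STIL were the steadiest members. ARID5B (ENSG00000150347.10, GRCh37 chr10:63661443-63856703, plus strand) encodes a DNA-binding protein that supports the expression of TAL1 and MYC in T-ALL cells. Its level ranged from 254 to 287 CPM over the 8 Jurkat libraries and from 135 to 157 CPM over the 8 HSB-2 libraries. The pooled log2 change was -0.07 ± 0.06 in Jurkat (95% interval -0.20 to 0.05, adjusted p = 0.43) and -0.06 ± 0.05 in HSB-2 (-0.16 to 0.03, adjusted p = 0.32). These intervals leave room for a fall of up to 0.20 on the log2 scale in Jurkat, and the sign in HSB-2 turned with wild-type cells as control (0.14 ± 0.04, not called).

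STIL (ENSG00000123473.11, GRCh37 chr1:47715811-47780564, minus strand), a centriole duplication factor, is the neighbor of TAL1 on chromosome 1 and is fused to it by deletion in some T-ALL. It ranged from 105 to 116 CPM in Jurkat and from 45.8 to 56.8 CPM in HSB-2. The change in Jurkat was 0.06 ± 0.06 (95% interval -0.07 to 0.18, adjusted p = 0.52). Under the GC and length correction, which also rescaled library composition on top of TMM, it was -0.20 ± 0.06 and called. As the median of all genes moved from 0.02 to -0.17 under that correction, STIL was 0.04 from the median before it and -0.03 after it. In HSB-2 the scrambled libraries, at 47.1 and 45.8 CPM, were the lowest, and STIL was called 0.19 ± 0.06 higher (adjusted p = 0.041). Against wild-type cells, at 51.5 and 52.9 CPM, the HSB-2 change was 0.01 ± 0.06, not called.

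The hairpins were compared with each other directly in a fit of all 16 libraries, in which the error came from the replicates of each group. In Jurkat 7 of the 9 genes differed between the hairpins, where 33.9% of all genes tested did. USP7 was lower with shRNA-4057 than with shRNA-4058 (-0.77 ± 0.03), as were ALDH1A2 (-0.52 ± 0.05, adjusted p = 7.0e-09), MYB (-0.42 ± 0.03, adjusted p = 6.9e-11), CDK6 (-0.35 ± 0.04) and RUNX1 (-0.14 ± 0.03). GATA3 was higher with shRNA-4057 (0.44 ± 0.04, adjusted p = 7.0e-09), and ARID5B (0.13 ± 0.03) and TRIB2 (0.11 ± 0.03) were slightly higher. ETS1 differed by 0.03 ± 0.03 (95% interval -0.03 to 0.09) and STIL by 0.01 ± 0.05 (-0.09 to 0.10), neither called.

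In HSB-2, 5 of the 9 differed between the hairpins against 24.8% of all genes tested. USP7 was again lower with shRNA-4057, by a smaller step (-0.12 ± 0.03, adjusted p = 0.015). Yet ALDH1A2 was higher with shRNA-4057 than with shRNA-4058 (0.77 ± 0.13, adjusted p = 8.2e-05), as were CDK6 (0.31 ± 0.04), RUNX1 (0.26 ± 0.03) and MYB (0.17 ± 0.03), and TRIB2 was lower (-0.50 ± 0.03, adjusted p = 3.6e-11). For these 5 genes the hairpin farther from scrambled cells in HSB-2 was thus shRNA-4058, the one with the higher USP7 level.

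Each hairpin was also set against scrambled cells, which serve as control for both, so these comparisons are not independent of each other. In Jurkat, shRNA-4057 gave 7 called members of 9 (50.0% of all genes tested) and shRNA-4058 gave 8 (46.5%). In HSB-2, shRNA-4057 gave 9 (43.6%) and shRNA-4058 gave 8 (52.8%). RUNX1, MYB and ALDH1A2 were called lower and ETS1 and TRIB2 higher with each hairpin in each line. The share of all genes called alike in all of these comparisons was not counted. Against wild-type cells, RUNX1 with shRNA-4057 in HSB-2 was called in the other direction (0.11 ± 0.03). GATA3 was called with opposite signs by the hairpins in Jurkat, at 0.10 ± 0.04 with shRNA-4057 and -0.35 ± 0.04 with shRNA-4058, and with the same sign in HSB-2, at 0.72 ± 0.04 and 0.77 ± 0.04. The Jurkat call with shRNA-4057 was at the threshold (adjusted p = 0.0499): it stood in 2 of 9 alternatives, which ranged from -0.11 to 0.19 (adjusted p from 8.4e-04 to 0.95), and turned to a called lower level against wild-type cells (-0.11 ± 0.04). It was also lost without scrambled replicate 1 or shRNA-4057 replicate 1, with values from 0.064 to 0.15 over the 4 libraries left out in turn. CDK6 was called higher in Jurkat (0.19 ± 0.04 with shRNA-4057 and 0.55 ± 0.04 with shRNA-4058) and lower in HSB-2 (-0.47 ± 0.04 and -0.78 ± 0.04). ARID5B was called lower with shRNA-4058 in Jurkat (-0.16 ± 0.03) and with shRNA-4057 in HSB-2 (-0.10 ± 0.03) but not in the other pairs (-0.03 ± 0.03 and -0.04 ± 0.03). STIL was not called in Jurkat (0.04 ± 0.05 and 0.03 ± 0.05) and was called higher in HSB-2 (0.13 ± 0.05 and 0.24 ± 0.05).

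Scrambled cells differed from wild-type cells for several of these genes. In Jurkat 6 of the 9 were called (25.9% of all genes tested), with ALDH1A2 (0.90 ± 0.05) and MYB (0.23 ± 0.03) higher and TRIB2 (-0.56 ± 0.03), CDK6 (-0.27 ± 0.04), ETS1 (-0.23 ± 0.03) and GATA3 (-0.20 ± 0.04) lower in scrambled cells. RUNX1 (-0.04 ± 0.03), ARID5B (0.03 ± 0.03) and STIL (-0.06 ± 0.05) were not called in Jurkat. In HSB-2 all 9 were called (34.1%), with ALDH1A2 (0.54 ± 0.08), RUNX1 (0.49 ± 0.03), ARID5B (0.21 ± 0.03), CDK6 (0.20 ± 0.04) and MYB (0.13 ± 0.03) higher and TRIB2 (-0.60 ± 0.03), GATA3 (-0.36 ± 0.04), ETS1 (-0.23 ± 0.03) and STIL (-0.17 ± 0.05) lower. The scrambled libraries stand in this comparison and in those of the hairpins, so an extreme scrambled level moves both in opposite directions. For ALDH1A2 and TRIB2 the wild-type level lay between the scrambled and the shRNA level in both lines: ALDH1A2 was at 40.2% (shRNA-4057) and 57.5% (shRNA-4058) of the wild-type level in Jurkat and at 69.0% and 42.6% in HSB-2, so the line with the lower relative level differed between the hairpins. Relative to scrambled cells these levels were 21.6% and 30.9% in Jurkat and 46.1% and 28.4% in HSB-2. TRIB2 was at 256% and 238% of the wild-type level in Jurkat and at 170.3% and 241% in HSB-2, again with the lines in a different order for each hairpin. Relative to scrambled cells it was at 377% and 349.6% in Jurkat and 258% and 366% in HSB-2.

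**Figure D3:**
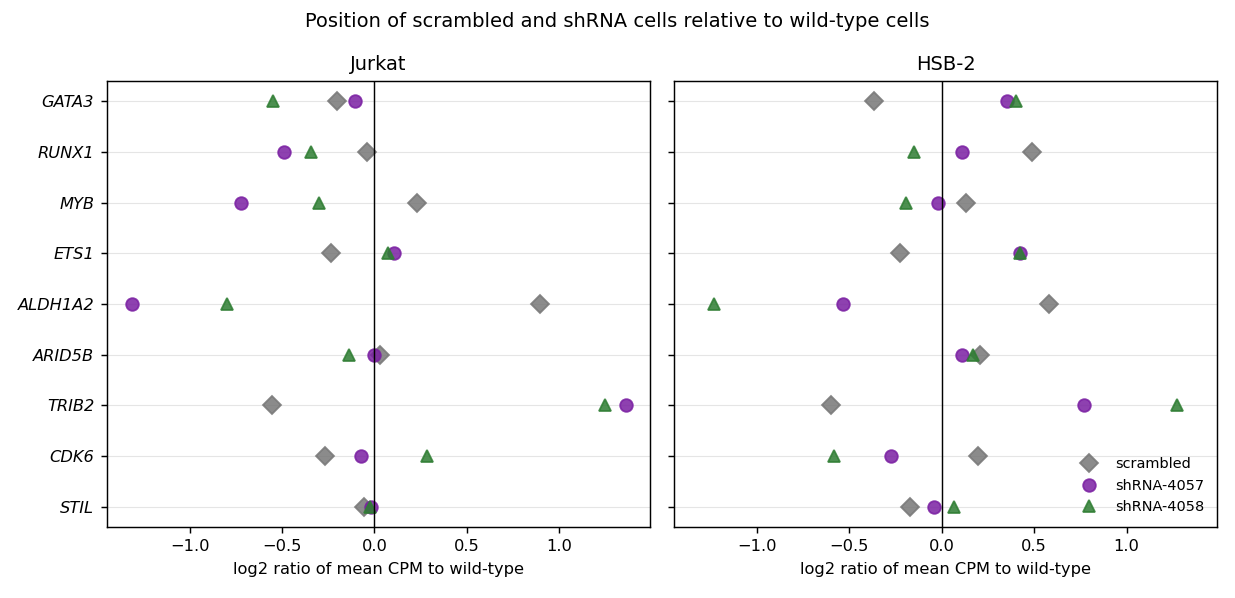
Log2 ratio of the mean CPM of scrambled (diamonds), shRNA-4057 (circles) and shRNA-4058 (triangles) cells to wild-type cells, for each gene in each line, n = 2 libraries a group. For ALDH1A2 and TRIB2 the scrambled and the shRNA groups lie on opposite sides of wild-type cells in both lines, whereas RUNX1 in HSB-2 has both hairpins near wild-type cells and the scrambled group apart.

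The other genes of the pathway were taken from lists chosen with earlier results of these data known. Of the TAL1 complex (11 genes with its cofactors), 2 of 11 tested rose and 1 fell in Jurkat, a share near the 28.0% of all genes called there. In Jurkat LMO1, a bridging partner of TAL1, fell (-1.27 ± 0.24, adjusted p = 0.0082) and the TAL1 relative LYL1 (0.79 ± 0.18) and the acetyltransferase CREBBP (0.56 ± 0.11) rose. In HSB-2 6 of 9 tested rose against scrambled cells and none fell, where 20.3% of all genes were called higher and 17.8% lower, with LYL1 at 1.21 ± 0.17 (adjusted p = 6.1e-04), CREBBP at 0.52 ± 0.07, LMO2 at 0.39 ± 0.11 and TAL1 as above. Scrambled HSB-2 cells had 6 genes of this list called lower than wild-type cells, among them LYL1, CREBBP and TAL1. LMO2 alone was called higher there, where 34.1% of all genes were called. CREBBP in HSB-2 was at 188.7 CPM in wild-type and 142.1 in scrambled cells, beside 214.8 and 192.7 with the hairpins. The median of the list was 0.15 in Jurkat and 0.21 in HSB-2, beside 0.02 and -0.02 over all genes tested. LMO1 levels in Jurkat were 6.49 ± 0.07 CPM (SD, n = 2) in wild-type, 10.7 ± 0.03 in scrambled, 3.24 with shRNA-4057 and 5.46 ± 0.20 with shRNA-4058 cells, the same order as ALDH1A2 and MYB.

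Further genes reported as activated by TAL1, with MYC, gave 2 higher and 5 lower of 11 tested in Jurkat and 8 higher and 1 lower in HSB-2, with list medians of -0.23 and 0.68, beside 28.0% and 38.1% of all genes called. In Jurkat the tetraspanin gene TSPAN7 fell (-0.94 ± 0.17). In HSB-2 the phosphatase gene UBASH3B rose (1.40 ± 0.06, adjusted p = 6.6e-07), as did the lymphocyte GTPase genes GIMAP8 (2.60 ± 0.21, from 0.41 ± 0.05 CPM in scrambled cells), GIMAP7 (0.83 ± 0.13) and GIMAP5 (0.78 ± 0.10), and the single member called lower was MYC. GIMAP8 in HSB-2 was at 1.282 CPM in wild-type cells, beside 2.746 and 2.195 with the hairpins. Scrambled HSB-2 cells had 4 of these 11 genes called lower than wild-type cells, among them GIMAP8, UBASH3B and GIMAP7, and 3 higher (34.1% of all genes called). GIMAP8 (1.68 ± 0.42) and GIMAP7 (0.49 ± 0.13) were called higher in Jurkat as well, where GIMAP7 was at 50.1 CPM in wild-type cells and at 62.9 and 49.5 CPM with the hairpins. The difference between the lines was called for 7 of these 11 genes, 6 of them in the direction of HSB-2, where 37.7% of all genes tested were called.

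Among 12 tested paralogs of the members, 1 rose and 2 fell in Jurkat and 5 rose and 1 fell in HSB-2, where 28.0% and 38.1% of all genes were called, so the Jurkat count was near the background. In Jurkat the ETS-family genes ERG (-1.07 ± 0.17) and ETS2 (-0.97 ± 0.22) fell while FLI1 rose (0.32 ± 0.10). In HSB-2 ARID5A (1.31 ± 0.08), RUNX3 (1.08 ± 0.06), RUNX2 (1.01 ± 0.22) and FLI1 (0.42 ± 0.05) rose. RUNX2 in HSB-2 was at 2.29 CPM in wild-type and 0.633 in scrambled cells beside 1.21 and 1.31 with the hairpins, so it was below wild-type cells with both. The Jurkat wild-type level lay between the hairpins for ETS2 (93.4 CPM, beside 60.4 and 98.5) and FLI1 (190.4 CPM, beside 214 and 178). RUNX3 went from 246 ± 7.40 CPM in scrambled HSB-2 cells to 527 ± 17.4 with shRNA-4057 and 506 ± 21.7 with shRNA-4058, beside 347 ± 4.44 in wild-type cells, so RUNX1 and its paralog RUNX3 were called in opposite directions against scrambled cells in HSB-2.

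Around ALDH1A2, the retinoic acid pathway gave 5 higher and 1 lower of 11 tested in Jurkat and 4 higher and 1 lower of 12 in HSB-2, the latter near the 38.1% of all genes called there (28.0% in Jurkat). The receptor genes RARA and RXRA rose in both lines (RARA 0.64 ± 0.11 and 0.53 ± 0.05, RXRA 0.53 ± 0.09 and 0.72 ± 0.10) against scrambled cells. In HSB-2, RARA was at 87.1 CPM in wild-type and 60.8 in scrambled cells beside 86.6 and 89.0 with the hairpins, and RXRA at 169 and 113 beside 167 and 204, so for both genes the wild-type level lay between the hairpins. DHRS3, whose product reduces retinal to retinol and so works against ALDH1A2, rose in HSB-2 (1.56 ± 0.06, adjusted p = 5.6e-07), from 21.6 ± 0.54 CPM in scrambled cells to 61.6 ± 0.49 and 65.1 ± 0.92 with the hairpins, beside 27.4 in wild-type cells. In Jurkat DHRS3 was not called in the pooled comparison, but it was called lower with each hairpin against scrambled cells. Scrambled Jurkat cells were called higher than wild-type cells for it. The difference between the lines was called for DHRS3. RDH10, which makes retinal, was called higher in Jurkat (0.41 ± 0.10) and lower in HSB-2. 

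Around CDK6, the cyclin D and CDK4/6 module gave 3 higher and 4 lower of 15 tested in Jurkat and 8 higher and none lower in HSB-2, where 12.4% of all genes were called higher and 15.7% lower in Jurkat, and 20.3% and 17.8% in HSB-2. Scrambled HSB-2 cells had 7 of the 15 genes called lower than wild-type cells and 5 higher, where 34.1% of all genes were called. All of these 7 were among the 8 called higher with shRNA. In Jurkat the cyclin gene CCND2 rose (1.77 ± 0.16, adjusted p = 4.6e-04), from 8.51 ± 0.10 CPM in scrambled cells to 24.6 ± 1.15 and 32.5 ± 0.31 with the hairpins, beside 17.0 in wild-type cells. There the retinoblastoma gene RB1 rose (0.87 ± 0.07) and the inhibitor gene CDKN1B fell (-0.91 ± 0.05). CCND1 was called higher in both lines but was at 2.30 CPM or less in each group mean, and in HSB-2 it was at 2.28 CPM in wild-type and 0.696 in scrambled cells beside 2.30 and 2.02 with the hairpins. In HSB-2, where CDK6 fell, the inhibitor genes CDKN1A (1.501 ± 0.20) and CDKN2D (1.34 ± 0.08) rose. The genes called higher there were not inhibitors alone but included cyclin D genes, among them CCND1 and, at 0.311 CPM or less in each group mean, CCND2. CDKN1A in HSB-2 was at 86.6 CPM in wild-type, 43.7 ± 0.16 in scrambled, 96.5 ± 1.67 with shRNA-4057 and 150.3 ± 4.11 with shRNA-4058 cells. CDKN2D there was at 32.9 CPM in wild-type and 16.15 in scrambled cells, beside 38.5 and 42.8 with the hairpins.

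Around STIL, the centriole duplication module had 2 higher and 1 lower of 9 tested in Jurkat and 1 higher and 1 lower in HSB-2, near or below the 28.0% and 38.1% of all genes called, and the largest of these changes was that of the cartwheel gene SASS6 in Jurkat (0.39 ± 0.11). Of 10 proliferation genes, 2 rose and 2 fell in Jurkat (12.4% and 15.7% of all genes) and 6 rose and 1 fell in HSB-2 (20.3% and 17.8%), and MKI67 was called higher in both (0.34 ± 0.10 and 0.44 ± 0.07). Its wild-type level lay between the hairpins in both lines, at 946 CPM in Jurkat (808 in scrambled cells, 1099 and 912 with the hairpins) and 1475 CPM in HSB-2 (1100.0, 1580.0 and 1403). The same held for PLK1 in HSB-2, at 115.8 CPM in wild-type cells (79.87 in scrambled cells, 111.8 and 125.0 with the hairpins). Scrambled HSB-2 cells had 4 of the 10 called lower than wild-type cells, all among the 6 that rose. BUB1, which fell, was called higher there (34.1% of all genes called). T-lineage markers moved apart against scrambled cells, with 6 of 11 lower in Jurkat (15.7% of all genes) and 9 of 11 higher in HSB-2 (20.3%). In HSB-2, 10 of the 11 were called lower in scrambled than in wild-type cells (34.1% of all genes called), among them each of the 9 except CD247. CD2 in HSB-2 was at 3.46 CPM in wild-type and 0.802 in scrambled cells, beside 4.94 and 3.40 with the hairpins. CD28, CD5 and CD3D were above wild-type cells with both hairpins. In Jurkat 4 markers were called higher and 2 lower in scrambled than in wild-type cells (25.9%). The part of T-lineage markers in the changes of the 9 genes was not tested. B-lineage markers gave 1 higher and 1 lower of 3 tested in Jurkat, where CD79A held most of their 22.0 to 64.8 CPM, and 2 higher of 2 in HSB-2. Of 2 erythroid and megakaryocytic markers tested, ITGA2B was called lower in Jurkat and none in HSB-2, the 1 myeloid marker tested was called in neither line, and the 1 packaging cell marker called, KRT18 in HSB-2, was at 0.284 CPM or less. The Jurkat counts of these lists rest on having both scrambled libraries: without the first or the second of them, respectively, 0 and 0 genes of the TAL1 complex were called, 0 and 1 paralogs, 1 and 1 of the further TAL1-activated genes, 0 and 1 of the retinoic acid pathway, 4 and 4 of the cyclin module, 0 and 0 centriole genes, 0 and 0 proliferation genes, and 3 and 3 T-lineage markers. In HSB-2, leaving out either scrambled library gave 3 called genes of the TAL1 complex and none of the centriole module.

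**Figure D4:**
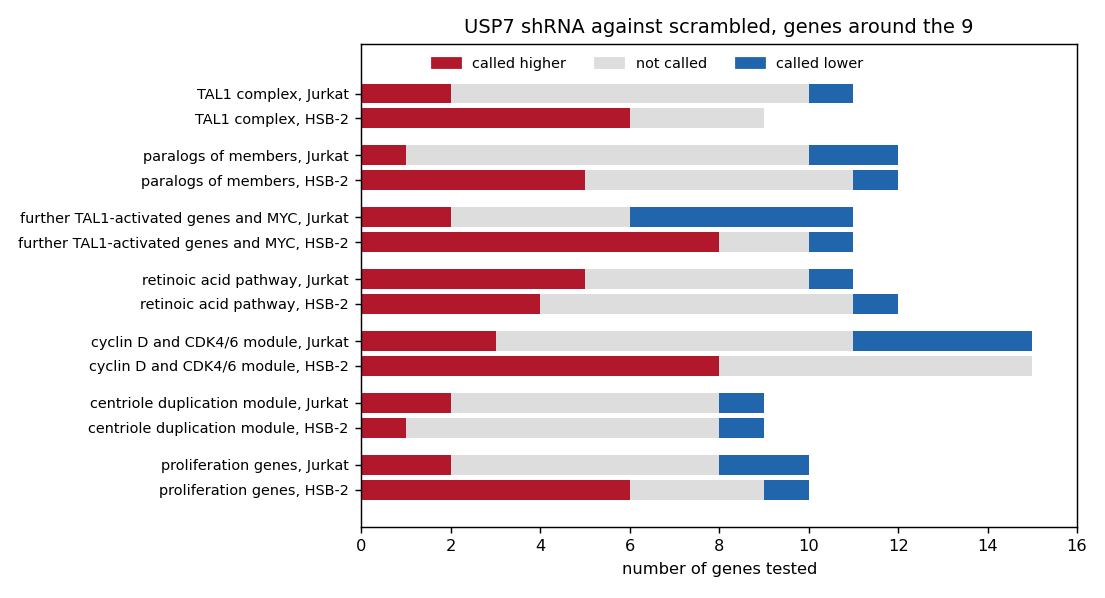
Number of genes called higher (red), not called (grey) and called lower (blue) with USP7 shRNA against scrambled cells, for 7 lists around the 9 genes in each line, with the number tested on the x axis. In the TAL1 complex, the further TAL1-activated genes and the cyclin D module, HSB-2 shows 6, 8 and 8 genes called higher, and Jurkat shows 2, 2 and 3.

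Finally, the genes whose pattern over the 4 groups of a line was most like that of ALDH1A2 or TRIB2 were sought, by the root-mean-square difference of log2 CPM group means centred within the line. For ALDH1A2 in Jurkat, the nearest of 13724 genes were PTPRK (0.061 log2 units), PYGL (0.11) and TDRD9 (0.13). PTPRK stood at 68.9 CPM in wild-type, 121 in scrambled, 25.1 with shRNA-4057 and 40.1 with shRNA-4058 cells. For TRIB2 in Jurkat they were ZNF683 (0.11), PI16 (0.15) and CUEDC1 (0.15), and in HSB-2, out of 13489 genes, LSP1 (0.045), GSTM3 (0.060) and ETNK2 (0.063). LSP1 stood at 236 CPM in wild-type, 162 in scrambled, 409.7 with shRNA-4057 and 545 with shRNA-4058 cells of HSB-2. For ALDH1A2 in HSB-2 the nearest were the pseudogenes LRRC37A4P and LRRC37A17P, which share sequence with other copies so that their counts are uncertain, and ADAMTS19 (0.058). Each likeness is over 4 group means of 2 libraries and describes these libraries.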

How the data were processed

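The deposited values were raw read counts per gene, neither normalized nor pooled, from ribosome-depleted stranded RNA-seq libraries. The authors aligned reads with BWA to GRCh37-lite and transcript collections and counted them with HTSeq (version 0.6.1p1 in the submitters' processing notes, which also name STAR and hg19). The strand setting was not given in the sources used here, so antisense reads cannot be told apart from sense reads.

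Counts were tested with edgeR 4.0.16 in R 4.3.3 (filterByExpr, TMM with factors from 0.882 to 1.15, quasi-likelihood F-test, Benjamini-Hochberg adjustment). The pooled comparison of a line set 4 shRNA libraries against 2 scrambled libraries. It treated the 4 shRNA libraries as independent, although they came from 2 hairpins. Its error therefore joined the difference between hairpins with the spread of replicates. The difference between lines was an interaction term over 12 of the 16 libraries, and 1 fit of all 16 as 8 groups gave the single hairpins and the scrambled to wild-type comparison. SE was the log2 fold change divided by the square root of F. The 95% intervals used the normal quantile and so are somewhat narrow at this n. Positions and lengths came from GENCODE release 44 on GRCh37, and promoter windows from RefSeq on GRCh38.p14. The members and lists were chosen with earlier results of these data known. All 9 members were named in each comparison, with at most the 4 largest called changes of a list. The likeness of patterns used a pseudocount of 0.5 CPM and genes of at least 1 CPM, for members spanning at least 1 log2 unit. All 9 members passed the filter on low counts. Myeloid, B-lineage, erythroid and packaging cell markers were also listed. The fits were tested on simulated data. Replicates of a group differed by more than sampling noise. Alternatives were DESeq2 1.42.0, other scalings and filters, a replicate block, a GC and length correction, other controls and leaving out each library. The values of 1 gene of these lists are not reported here.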

Additional observations from a re-analysis of the deposited data

Results flagged for a closer look

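For 4 of the 9 genes the pooled USP7 shRNA effect differed between the lines by the interaction test (HSB-2 minus Jurkat, log2 scale, edgeR adjusted p under 0.05), where 37.7% of all genes tested did. GATA3 differed by 0.85 ± 0.17, with a called rise in HSB-2 and hairpins of opposite sign in Jurkat. CDK6 differed by -0.996 ± 0.18, being called higher in Jurkat and lower in HSB-2. Its call in Jurkat stood in 6 of 10 alternatives, which ranged from 0.0053 to 0.47. The CDK6 difference between the lines was not called under the GC and length correction. MYB differed by 0.49 ± 0.17, with a larger fall in Jurkat, a call that was lost under 4 of 10 alternatives (which ranged from 0.40 to 0.94) and without any 1 of 6 libraries. ETS1 differed by 0.33 ± 0.06, with a larger rise in HSB-2. Groups of 2 libraries are too small for a test of single outlying libraries.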

How the results depend on the processing

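Under 10 alternatives and without each of 6 libraries in turn, TRIB2 stayed higher and ALDH1A2 lower, and both stayed called, in the pooled comparison of each line, with TRIB2 from 1.33 to 1.95 and ALDH1A2 from -2.09 to -1.003 in Jurkat, and TRIB2 from 1.04 to 1.76 and ALDH1A2 from -1.58 to -0.86 in HSB-2 (log2). With n = 2 a group, calls near the threshold rest on single libraries, and cultures cannot be told apart from libraries. The causes of the changes below were not tested.

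With wild-type in place of scrambled cells, 3 members and 1798 genes in all were called in Jurkat (main 6 and 5965), 5 and 5010 in HSB-2 (main 8 and 8049), and 4338 genes for the difference between the lines (main 8559). Signs then turned for TAL1 in Jurkat (-0.22), ARID5B in HSB-2 (0.14 pooled, 0.11 with shRNA-4057, 0.17 with shRNA-4058), STIL in Jurkat (-0.020 with shRNA-4057, -0.027 with shRNA-4058) and in HSB-2 with shRNA-4057 (-0.040), RUNX1 in HSB-2 with shRNA-4057 (0.11) and between the lines (0.41), and GATA3 (-0.11) and CDK6 (-0.073) in Jurkat with shRNA-4057. With scrambled and wild-type cells together, 5 members were called in HSB-2, and signs turned for TAL1 in Jurkat (-0.049), ARID5B in HSB-2 (0.034 pooled, 0.0072 with shRNA-4057, 0.064 with shRNA-4058), GATA3 in Jurkat with shRNA-4057 (-0.0040) and RUNX1 between the lines (0.11). With scrambled libraries alone, CDK6 was higher in HSB-2 than in Jurkat (0.21). With the hairpins as separate groups, whose error leaves out the difference between hairpins, 11837 genes were called in Jurkat, 12077 in HSB-2 and 8 members between the lines.

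The GC and length correction moved the median log2 fold change of all genes from 0.02 to -0.17 in Jurkat, from -0.02 to 0.14 in HSB-2 and from -0.01 to 0.37 between the lines. The correction was fitted to CPM without TMM scaling and then added to TMM-scaled library sizes, so library composition was removed again. The shifts, turned signs and lost calls given here therefore do not measure GC or length bias alone. The called genes went from 2633 higher and 3332 lower to 1833 and 6799 in Jurkat, and from 4282 and 3767 to 6602 and 2259 in HSB-2. Between the lines they went from 4682 and 3877 to 8788 and 2071. The share called higher in the other comparisons moved from 45.4 to 24.6% and 42.5 to 20.6% with shRNA-4057 and shRNA-4058 in Jurkat, from 50.3 to 71.9% and 50.3 to 72.0% in HSB-2, from 57.3 to 84.2% and 47.4 to 33.2% for scrambled against wild-type Jurkat and HSB-2 cells, and from 42.3 to 31.8% between the hairpins in HSB-2. Under it 7 members were called between the lines. In the pooled comparisons STIL (-0.20) and TAL1 (-0.11) in Jurkat and ARID5B in HSB-2 (0.15) turned, as did RUNX1 (0.37) and TRIB2 (0.15) between the lines. Single hairpins in Jurkat turned for GATA3 (-0.10), CDK6 (-0.19) and STIL (-0.22) with shRNA-4057 and STIL (-0.27) with shRNA-4058. In HSB-2 MYB (0.040) and ARID5B (0.086) turned with shRNA-4057 and ARID5B (0.24) with shRNA-4058, and in scrambled against wild-type Jurkat cells RUNX1 (0.17), CDK6 (0.0090) and STIL (0.13) turned. ETS1 (0.09) and CDK6 (0.0053) in Jurkat and MYB in HSB-2 (-0.034) were no longer called, at 0.26, 0.17 and -0.17 from the moved median. The MYB difference between the lines was lost under upper-quartile scaling (0.41), the filter of 10 counts (0.45) and wild-type in place of scrambled cells (0.40).

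Upper-quartile scaling turned the split of called genes in Jurkat to 3323 higher and 2747 lower, with 56.4% higher for shRNA-4057 and 54.3% for shRNA-4058. It gave ARID5B 0.058 with shRNA-4057 in Jurkat, -9.3e-05 in scrambled Jurkat cells and -0.051 between the lines, and ETS1 0.027 between the HSB-2 hairpins. A filter of 10 counts in every library turned ARID5B between the lines (-0.015) and ETS1 between the HSB-2 hairpins (0.0083). Median-ratio size factors and DESeq2 turned ARID5B with shRNA-4058 in HSB-2 (0.021 in both) and STIL between the Jurkat hairpins (-0.0081 in both).

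Leaving out single libraries, the pooled members called ranged from 3 to 6 in Jurkat, all genes called from 1434 to 5792 in Jurkat and from 3801 to 8454 in HSB-2, with the low values without a scrambled library, and between the HSB-2 hairpins from 3713 (without shRNA-4057 replicate 2) to 4478 (main 5716). Near-zero values ranged across 0 for ARID5B with shRNA-4058 in HSB-2 (-0.051 to 0.033), CDK6 between the lines in control cells (-0.056 to 0.0066), ETS1 between the HSB-2 hairpins (-0.060 to 0.015) and STIL in Jurkat (-0.025 to 0.092 with shRNA-4057, -0.0052 to 0.061 with shRNA-4058, -0.053 to 0.063 between hairpins, -0.11 to 0.00016 for scrambled against wild-type). CDK6 in Jurkat was not called without either scrambled or either shRNA-4058 library, and STIL in HSB-2 likewise. MYB in HSB-2 was not called without either scrambled library or shRNA-4058 replicate 1.

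The labels give groups the same replicate numbers, and same-numbered libraries did not deviate together in all groups. In Jurkat the correlations were 0.13 to 0.15 among wild-type, scrambled and shRNA-4058 cells but -0.14 to -0.083 for shRNA-4057 with these, and in HSB-2 they were -0.12 to 0.072, so the numbers were not taken to pair the libraries. With the replicate number as a block, 5 members were called in Jurkat, 6 in HSB-2 and 3 between the lines, and 4156, 6691 and 7195 genes in all. Calls lost were CDK6 in Jurkat (0.41, adjusted p = 0.083), MYB (-0.23, adjusted p = 0.054) and STIL (0.19, adjusted p = 0.079) in HSB-2, MYB between the lines (0.49, adjusted p = 0.066), GATA3 with shRNA-4057 in Jurkat and STIL with shRNA-4057 in HSB-2, from edgeR. Depth limits ALDH1A2 in HSB-2, read from as few as 81 counts.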
